A study of Mus musculus with 9 samples.

Results

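Cholesterol and fatty acid synthesis in B16 mouse melanoma cells was followed here through 42 genes of 21676 in the deposited table. They were listed by name for their roles: 7 enzymes from acetoacetyl-CoA to farnesyl diphosphate, 11 enzymes from squalene to cholesterol, 6 genes of the SREBP system and sterol transport, 5 genes of acetyl-CoA supply and fatty acid synthesis, 7 elongases and desaturases, and 6 genes of glycerolipid synthesis and lipid droplets. Each of the 42 symbols was found in the table, and each passed the filter on low counts and was tested. The cells were grown in culture in medium with fetal bovine serum, which supplies lipoprotein cholesterol and fatty acids. Of 9 RNA-seq libraries, 3 came from cells with a control hairpin, called shControl here (shCotrol in the labels), 3 from cells with the hairpin shAD4-1 and 3 from cells with shAD4-2. The series title names ADGRL4, a receptor of the adhesion GPCR class, and the design text calls the hairpin cells knockdown derivatives with 3 biological replicates per group. Adgrl4 itself is not analysed here, and how far its level fell was not measured. Whether a hairpin line is a clone or a pool, and which vector carries it, is not given in the sources used here. P-values measure the spread between the 3 libraries of a group. Whether these come from a single derivative line per hairpin is not stated, so the spread between independently made lines may not be covered.

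Sterol and fatty acid synthesis share a transcriptional control. The SREBP transcription factors, encoded by Srebf1 and Srebf2, are made as membrane proteins that their escort Scap carries from the endoplasmic reticulum to the Golgi, where proteases release the active part. Insig1 and Insig2 hold Scap back in the endoplasmic reticulum when sterols are plentiful, and released SREBPs bind sterol regulatory elements in the promoters of many lipid synthesis genes, Insig1 among them. In tumour cells these pathways supply membrane lipids, and neutral lipids made in excess are stored in droplets coated by perilipins.

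The libraries held 31.3 to 36.9 M reads, and the 42 genes together took 0.464% to 0.492% of them. Levels are given as CPM (counts per M reads of the TMM-scaled library size, where TMM is edgeR's correction for composition) or, where genes are compared with each other, as FPKM, which also divides by gene length. A mean ± SD is over 3 libraries. Log2 fold changes, their SEs and adjusted p-values were obtained by the quasi-likelihood test of edgeR (Benjamini-Hochberg adjusted over 13807 genes), and a gene is called higher or lower at an adjusted p under 0.05. The 7 melanocyte markers (Pmel, Mlana, Tyr, Tyrp1, Dct, Sox10 and Mitf) were present in every library, with 408938 to 412869 reads summed in control and 332569 to 421344 in the hairpin libraries. All 7 were called lower with shAD4-1, against 2 higher and 2 lower with shAD4-2. Adipocyte markers held 4 to 14 reads per library and keratinocyte markers 0 to 4, although the labels name skin as the tissue. Reads summed over immune markers numbered 104 to 132 in control and 238 to 299 in the hairpin libraries, over endothelial markers 19 to 26 and 33 to 59, and over fibroblast markers 165 to 265 and 365 to 502. Of the immune markers, Lyz2 had 3 to 10 reads in control and 83 to 162 in the hairpin libraries and was called higher with both, and Cd68 had 96 to 121 and 107 to 174 and was called higher with shAD4-1. Ptprc was too low to test, with at most 1 read in a library. The endothelial marker Vwf had 12 to 23 reads in control and 29 to 55 in the hairpin libraries and was called higher with both. Pecam1 had 2 to 10 and 1 to 3 reads and, like Cdh5 and Tek, was too low to test. Of the fibroblast markers, Col1a1 and Col1a2 were called higher with both hairpins, Pdgfra was called with neither, and Lum was too low to test. Mitochondrially encoded genes took 2.30% to 2.61% of reads in control and 3.60% to 3.89% in the hairpin libraries. This rise went with every comparison against control below, and without those genes in the fit no lipid synthesis gene gained or lost its call. Of the controls, replicate 1 differed most from the rest, with a chi-square per degree of freedom of 12.5 and 18.2 against them where they had 3.43 with each other. Without it, 18 lipid synthesis genes were higher and 15 lower with shAD4-1, and 19 and 12 with shAD4-2. Of all genes tested without it, 65.6% and 69.2% were called in either direction with shAD4-1 and shAD4-2.

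With each hairpin some lipid synthesis genes rose, some fell and some were not called, as was so among all tested genes. With shAD4-1, 18 of 42 (42.9%) were higher than control and 14 (33.3%) were lower, while 32.7% and 32.3% of all tested genes were called in these directions. With shAD4-2, 17 (40.5%) were higher and 11 (26.2%) lower, beside 34.2% and 34.8% of all tested genes. In the same direction with both hairpins, 16 genes (38.1%) were higher and 9 (21.4%) lower, beside 28.1% and 27.6% of all tested genes, and these counts share the control libraries. The share higher was thus above that of all tested genes with either hairpin. The share lower was close to it with shAD4-1 and below it with shAD4-2. These gaps are of few genes and were not tested, and the 42 genes were chosen with earlier results of these data known. The background is not matched for level: with a filter of at least 1 CPM in 3 libraries, 69.7% (shAD4-1) and 73.3% (shAD4-2) of genes were called in either direction. In the main fit these shares were 65.0% and 69.0%. None was called higher with one hairpin and lower with the other. Changes of at least 1.5-fold were found for 9 genes upward and 2 downward with shAD4-1, where 12.6% and 12.5% of all tested genes passed that size. With shAD4-2 there were 9 upward and 3 downward, beside 13.7% and 15.6%. The median log2 fold change over the 42 genes was 0.01 with either hairpin, and the median size of the change was 0.31 and 0.29, against 0.34 and 0.38 over all tested genes.

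**Figure D1:**
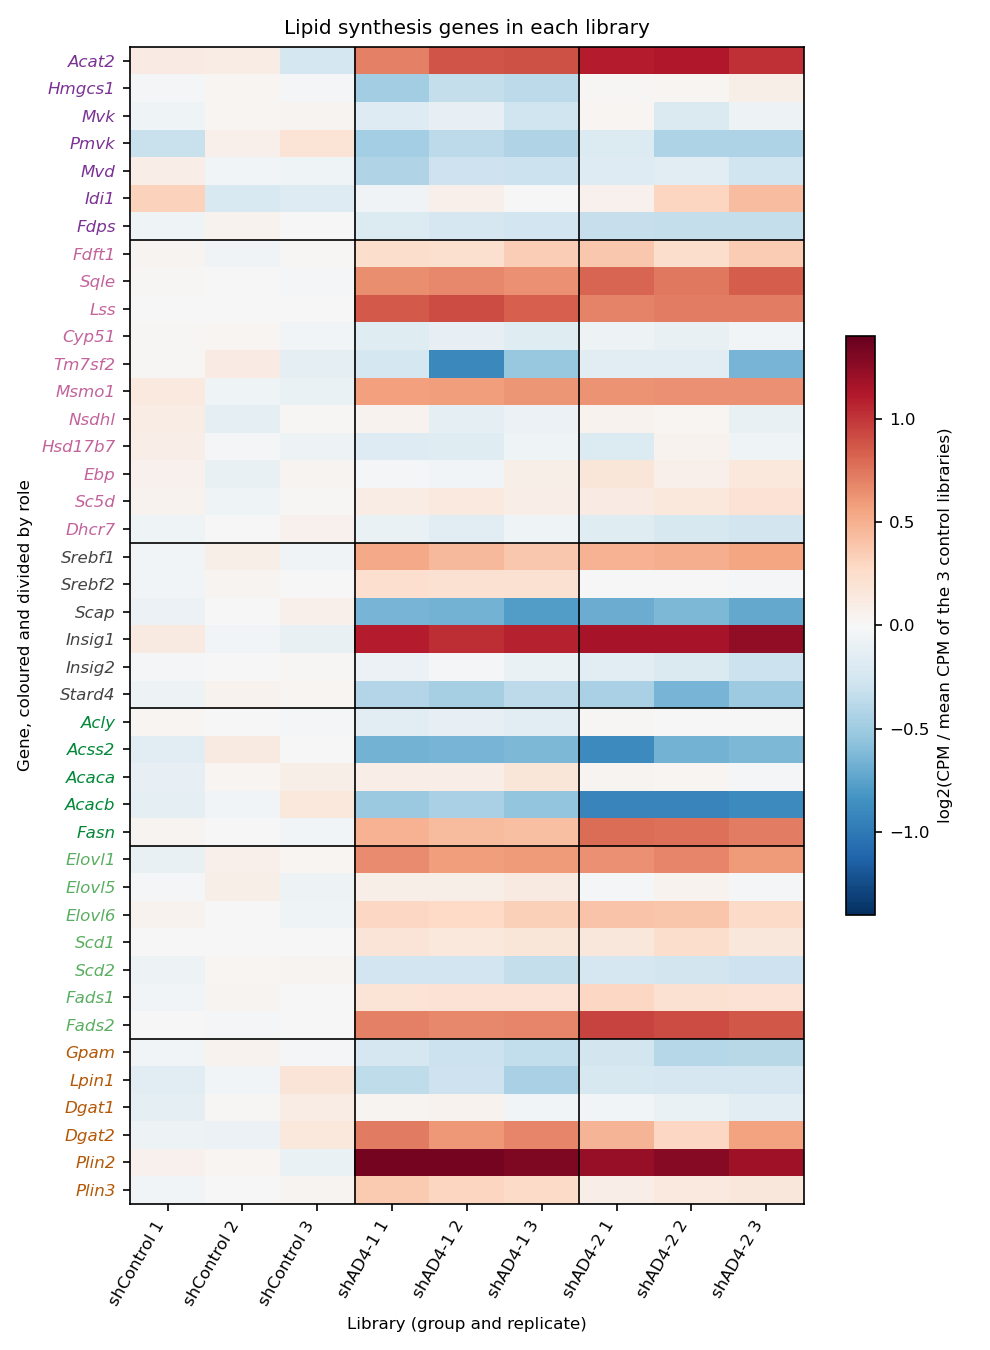
Level of each of the 42 genes (rows, grouped and coloured by role) in each of the 9 libraries (columns), as the log2 ratio of its CPM to the mean CPM of the 3 control libraries, with red above and blue below control. In the hairpin libraries the rows of Plin2, Insig1 and Acat2 are deep red and those of Scap, Acss2, Acacb and Stard4 are blue.

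**Figure D2:**
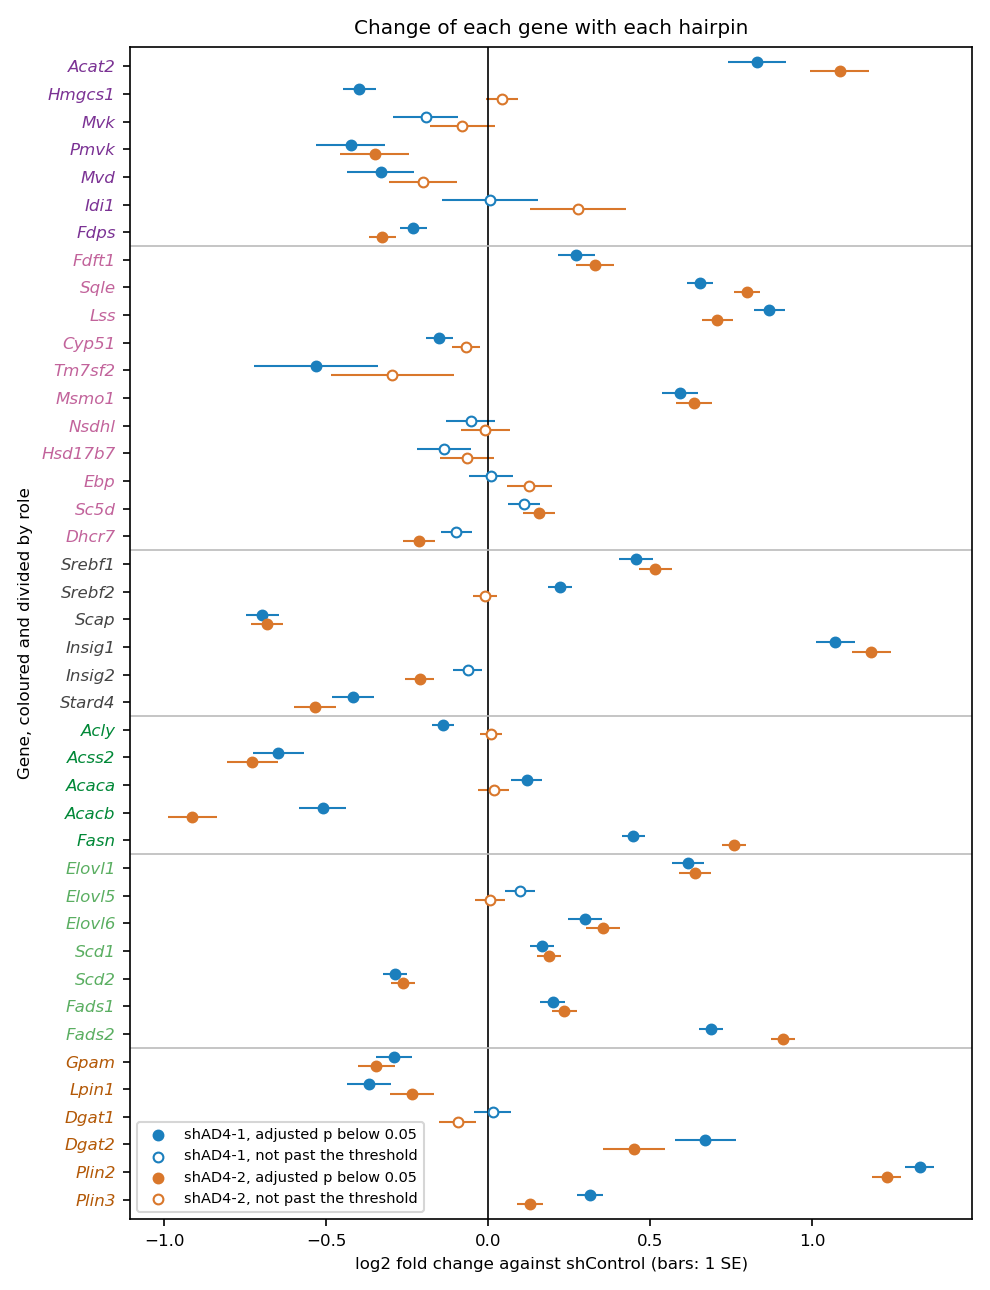
Log2 fold change of each gene against control with shAD4-1 (blue) and shAD4-2 (orange), with bars of 1 SE. Filled points passed the adjusted p threshold of 0.05, and the values run from -0.70 to 1.33 with shAD4-1 and from -0.91 to 1.23 with shAD4-2.

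To show the regulatory sequence that these genes do or do not share, promoters were taken from RefSeq (GRCm38.p6, another build than that of the counts) as 250 bases before to 50 after each start site. A window was found for 33 of the 42 genes, 43 windows in all. Fdps, Fdft1, Sqle, Stard4, Scd1, Scd2, Fads1, Dgat1 and Dgat2 had no window, so the motif shares leave them out. The letters TCACNCCA, a core of the sterol regulatory element, were found on either strand for 5 of the 33 genes (15.2%), against 4.50% of 10936 tested genes with a window and 4.97% of all 27025 genes. CCAAT, bound by NF-Y, which acts beside SREBPs at many promoters, was found for 27 genes (81.8%), against 43.1% and 41.1%. The E-box CACGTG was found for 7 (21.2%), against 11.6% and 8.09%, and the GC box GGGCGG for 26 (78.8%), against 66.9% and 38.2%. None of these strings contains another, and all were searched on both strands. A match is only a run of letters and not a measured binding site. The 5 promoters with TCACNCCA belong to genes that did not move alike: Msmo1 and Plin3 rose with both hairpins, Gpam fell with both, Hmgcs1 fell with shAD4-1 and was not called with shAD4-2, and Srebf2 rose with shAD4-1 and was not called with shAD4-2. Shown here are these 5 promoters and those of Plin2 and Insig1, which were over 2-fold higher with both hairpins and lack TCACNCCA in this window. Each is given 5′ to 3′ on the strand of the gene, with TCACNCCA, CCAAT and CACGTG or their reverse complements in capitals. The windows are Hmgcs1 at chr13:119690101-119690400 (plus strand), Msmo1 at chr8:64733529-64733828 (minus strand), Srebf2 at chr15:82147019-82147318 (plus strand), Gpam at chr19:55127189-55127488 (minus strand), Plin3 at chr17:56290462-56290761 (minus strand), Insig1 at chr5:28071162-28071461 (plus strand) and Plin2 at chr4:86670010-86670309 (minus strand). Gpam has a second RefSeq start, whose window holds no TCACNCCA.
Hmgcs1: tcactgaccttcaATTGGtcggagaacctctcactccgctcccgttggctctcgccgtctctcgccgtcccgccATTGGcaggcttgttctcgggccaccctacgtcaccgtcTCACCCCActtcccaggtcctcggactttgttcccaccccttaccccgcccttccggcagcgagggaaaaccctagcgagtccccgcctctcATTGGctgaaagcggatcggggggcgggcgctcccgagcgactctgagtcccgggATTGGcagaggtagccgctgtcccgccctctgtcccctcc
Msmo1: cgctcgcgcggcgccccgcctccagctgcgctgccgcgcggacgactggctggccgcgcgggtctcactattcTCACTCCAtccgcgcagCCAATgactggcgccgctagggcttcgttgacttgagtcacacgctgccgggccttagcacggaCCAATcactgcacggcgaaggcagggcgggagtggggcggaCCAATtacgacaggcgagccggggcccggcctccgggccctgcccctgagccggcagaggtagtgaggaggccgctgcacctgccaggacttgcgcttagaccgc
Srebf2: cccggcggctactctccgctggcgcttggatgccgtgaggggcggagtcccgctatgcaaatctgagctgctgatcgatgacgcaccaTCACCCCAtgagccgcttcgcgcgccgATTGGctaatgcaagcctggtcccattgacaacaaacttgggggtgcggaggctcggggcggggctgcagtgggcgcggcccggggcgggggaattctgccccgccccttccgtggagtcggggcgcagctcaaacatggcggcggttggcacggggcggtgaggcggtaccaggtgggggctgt
Gpam: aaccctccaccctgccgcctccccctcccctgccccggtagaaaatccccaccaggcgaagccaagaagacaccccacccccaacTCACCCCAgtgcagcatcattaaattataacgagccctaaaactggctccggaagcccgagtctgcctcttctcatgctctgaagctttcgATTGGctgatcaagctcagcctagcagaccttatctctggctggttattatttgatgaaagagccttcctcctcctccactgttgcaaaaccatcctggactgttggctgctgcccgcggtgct
Plin3: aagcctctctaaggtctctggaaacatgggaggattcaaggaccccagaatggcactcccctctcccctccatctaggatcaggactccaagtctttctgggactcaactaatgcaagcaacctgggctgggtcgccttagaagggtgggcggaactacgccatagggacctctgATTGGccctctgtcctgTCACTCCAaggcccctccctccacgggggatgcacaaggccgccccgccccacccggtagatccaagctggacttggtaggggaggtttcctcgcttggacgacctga
Insig1: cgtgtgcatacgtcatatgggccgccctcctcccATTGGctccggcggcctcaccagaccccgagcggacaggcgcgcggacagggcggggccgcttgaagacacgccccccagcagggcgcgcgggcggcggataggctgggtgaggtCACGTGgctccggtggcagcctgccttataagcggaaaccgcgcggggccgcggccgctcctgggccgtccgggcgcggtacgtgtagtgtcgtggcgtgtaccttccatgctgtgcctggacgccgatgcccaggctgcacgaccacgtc
Plin2: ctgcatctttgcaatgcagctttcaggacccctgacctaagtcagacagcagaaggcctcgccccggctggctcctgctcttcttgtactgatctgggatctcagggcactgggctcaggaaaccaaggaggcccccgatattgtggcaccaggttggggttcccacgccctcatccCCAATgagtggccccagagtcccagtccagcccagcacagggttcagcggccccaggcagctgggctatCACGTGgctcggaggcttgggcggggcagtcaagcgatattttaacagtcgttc

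Levels per gene length spanned a wide range in control cells, from 362 ± 14 FPKM for the desaturase Scd2 to 2.13 ± 0.472 for the isomerase Idi1. Scd2 stood far above the next gene, Fdps at 83.9 ± 2.96, which was followed by Plin3 at 60.8 ± 1.37 and Fads2 at 42.1 ± 0.452. In the middle of the order lay the regulators, with Scap at 23.1, Srebf2 at 19.8, Insig2 at 15.0, Srebf1 at 10.9 and Insig1 at 10.2 FPKM. Neighbours were often closer than their spread, as for Fasn, Srebf2, Cyp51 and Msmo1 at 19.1 to 19.8 FPKM and for Stard4, Acat2 and Pmvk at 6.06 to 6.22 FPKM. Low in the order stood Fdft1 at 3.38, Hsd17b7 at 3.17 and Tm7sf2 at 2.84 FPKM, all enzymes of the sterol branch.

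**Figure D3:**
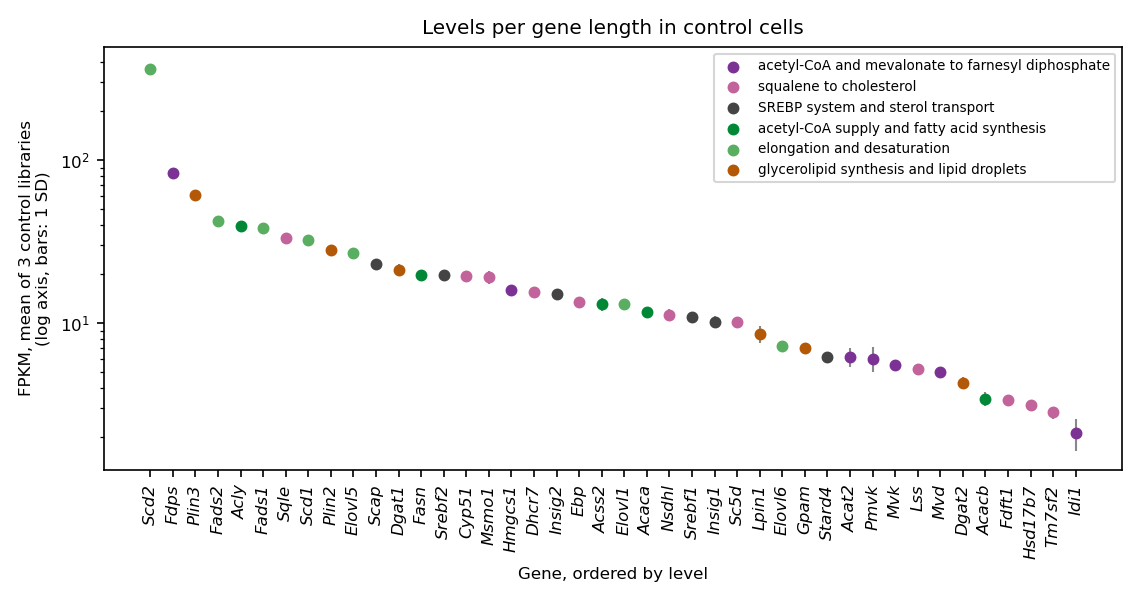
Mean FPKM of the 42 genes in the 3 control libraries on a log axis, ordered by level and coloured by role, with bars of 1 SD (hidden where smaller than the point). Scd2, at 362 FPKM, lies apart from all other genes, and each role is spread along the order.

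The SREBP system changed in opposite directions within itself: Insig1, which retains the SREBP escort, more than doubled, Scap, the escort, fell, and Srebf1 rose. Insig1 (gene ID 231070) stood at 28.7, 25.7 and 24.5 CPM in the control libraries, at 56.5, 53.9 and 55.4 with shAD4-1 and at 58.5, 58.3 and 62.2 with shAD4-2. Every hairpin library was above every control library, at 2.1-fold (log2 fold change 1.07, SE 0.06, adjusted p = 2.24e-11 in edgeR's test, Benjamini-Hochberg adjusted) and 2.27-fold (1.18, SE 0.06, adjusted p = 5.01e-12). Its paralog Insig2 stood at 102, 103 and 104 CPM in control, at 97.4, 102 and 96.1 with shAD4-1 and at 93.2, 89.6 and 83.5 with shAD4-2. Insig2 was not called with shAD4-1, where the groups overlapped (adjusted p = 0.223), and was lower with shAD4-2 (log2 fold change -0.21, adjusted p = 0.000431). In FPKM the ratio of Insig1 to Insig2 was 0.678 ± 0.0638 in control, 1.49 ± 0.0744 with shAD4-1 and 1.79 ± 0.164 with shAD4-2, so the order of the paralogs differed between control and hairpin libraries.

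Scap (gene ID 235623) stood at 100, 106 and 112 CPM in control, at 67.3, 67.2 and 61.7 with shAD4-1 and at 65.3, 68.4 and 64.4 with shAD4-2. The hairpin libraries lay below all control libraries and the hairpin groups overlapped each other, with log2 fold changes of -0.70 (SE 0.05, adjusted p = 7.53e-10) and -0.68 (SE 0.05, adjusted p = 8.49e-10). The ratio of Scap to Insig1 in FPKM was 2.28 ± 0.297 in control and 0.666 ± 0.0374 and 0.624 ± 0.0388 with the hairpins. A transcript annotated on the opposite strand, 5830462I19Rik, shares 13.2% of Scap's exon bases in GENCODE vM21 and was not among the tested genes.

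Srebf1, which encodes the SREBP known mainly for fatty acid synthesis, stood at 50.5, 55.0 and 50.3 CPM in control, 75.2, 70.9 and 67.6 with shAD4-1 and 72.6, 73.8 and 76.4 with shAD4-2. All hairpin libraries were above control, with log2 fold changes of 0.46 (adjusted p = 4.05e-07) and 0.52 (adjusted p = 6.9e-08). Srebf2, whose product is known mainly for sterol synthesis, stood at 106, 111 and 109 CPM in control, 128, 126 and 126 with shAD4-1 and 108, 108 and 107 with shAD4-2. It was higher with shAD4-1 (0.22, adjusted p = 4.43e-05), while the shAD4-2 libraries overlapped control (-0.01, adjusted p = 0.825). The ratio of Srebf1 to Srebf2 in FPKM accordingly went from 0.548 ± 0.0186 in control to 0.644 ± 0.0303 and 0.790 ± 0.0279. Stard4, a sterol carrier of the cytosol, fell with both hairpins, by 0.42 and 0.53 on the log2 scale (32.9 ± 1.46, 24.7 ± 0.823 and 22.7 ± 1.54 CPM in control, shAD4-1 and shAD4-2).

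In the first arm of sterol synthesis, from acetoacetyl-CoA to farnesyl diphosphate, the entry enzyme Acat2 rose and all other genes that passed the test fell. With shAD4-1, 1 of 7 genes (14.3%) was higher and 4 (57.1%) were lower, beside 32.7% and 32.3% of all tested genes. With shAD4-2, 1 (14.3%) was higher and 2 (28.6%) were lower, beside 34.2% and 34.8%, so the share lower was not above the background there. Their summed CPM was 241 ± 6.8 in control, 210 ± 3.46 with shAD4-1 and 228 ± 1.56 with shAD4-2. Acat2, the thiolase that joins acetyl-CoA units, was the gene that rose, from 13.6, 13.5 and 10.6 CPM in control to 20.5, 23.1 and 23.3 with shAD4-1 and 26.8, 27.4 and 25.6 with shAD4-2. All hairpin libraries were above control, at 1.78-fold (log2 fold change 0.83, SE 0.09, adjusted p = 2.06e-07) and 2.12-fold (1.09, SE 0.09, adjusted p = 4.34e-09). The closely related Acat3 had 0.403, 0.761 and 0.916 CPM on average in the 3 groups, and how reads common to both genes were counted is not given in the sources used here.

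Hmgcs1, the synthase that makes HMG-CoA, stood at 64.8, 66.5 and 64.6 CPM in control, 46.4, 51.7 and 50.5 with shAD4-1 and 66.2, 66.3 and 69.1 with shAD4-2. It was 1.32-fold lower with shAD4-1 (log2 fold change -0.40, SE 0.05, adjusted p = 1.32e-06), whereas the shAD4-2 libraries overlapped control (0.04, adjusted p = 0.462). Fdps, which makes farnesyl diphosphate, fell with both hairpins, from 119 ± 4.75 to 102 ± 2.87 and 95.2 ± 0.449 CPM (log2 fold changes -0.23 and -0.33). Same-strand annotation of Gm43738 covers 26.7% of the exon bases of Fdps, and opposite-strand Gm48342 covers 12.1% of those of Hmgcs1. Neither was among the tested genes. The kinase Pmvk went from 20.1 ± 3.5 to 15.0 ± 0.529 and 15.7 ± 1.56 CPM, and its controls were spread, at 16.2, 21.1 and 22.9. Its call with shAD4-2 (adjusted p = 0.00734) was lost without control replicate 3 (adjusted p = 0.0625). The decarboxylase Mvd was lower with shAD4-1 (-0.33, adjusted p = 0.00966) and at -0.20 with shAD4-2 (adjusted p = 0.0953). The kinase Mvk was called with neither hairpin (-0.19 and -0.08). Nor was the isomerase Idi1, at 5.12 to 7.42 CPM in control and 5.71 to 8.02 in the hairpin libraries. Idi1 was, however, called higher with shAD4-2 in edgeR's test when control replicate 1 was left out (0.47, adjusted p = 0.00385). The same held without shAD4-2 replicate 1 (0.38, adjusted p = 0.0488).

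In the branch from squalene to cholesterol, Fdft1, Sqle, Lss and Msmo1 rose with both hairpins. With shAD4-1, 4 of 11 genes (36.4%) were higher and 2 (18.2%) lower, beside 32.7% and 32.3% of all tested genes, so the share higher was near the background. With shAD4-2, 5 (45.5%) were higher and 1 (9.09%) lower, beside 34.2% and 34.8%. The summed CPM of the branch was 470 ± 8.44 in control, 567 ± 2.04 with shAD4-1 and 583 ± 8.4 with shAD4-2, with all hairpin libraries above control. Sqle, the epoxidase that is a rate-limiting step of this branch, stood at 89.9, 89.1 and 86.9 CPM in control, 139, 141 and 138 with shAD4-1 and 156, 148 and 159 with shAD4-2. The 3 groups did not overlap, at 1.57-fold (log2 fold change 0.65, SE 0.04, adjusted p = 7.73e-11) and 1.74-fold (0.80, SE 0.04, adjusted p = 3.91e-12) over control. Lss, the cyclase that makes lanosterol, stood at 35.3, 35.5 and 35.7 CPM in control, 64.3, 66.9 and 63.2 with shAD4-1 and 57.3, 58.5 and 58.2 with shAD4-2. Lss was thus above control in every hairpin library, at 1.82-fold (0.87, SE 0.05) and 1.63-fold (0.71, SE 0.05). Msmo1, a C4-demethylase of the pathway, stood at 47.7, 41.5 and 40.6 CPM in control, 64.3, 65.1 and 66.1 with shAD4-1 and 66.8, 67.2 and 67.5 with shAD4-2. Its hairpin groups lay close to each other and above control, with log2 fold changes of 0.59 (adjusted p = 3.11e-08) and 0.64 (adjusted p = 1.02e-08).

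Fdft1, squalene synthase, was also higher with both hairpins, from 34.3 ± 0.98 to 41.4 ± 1.75 and 43.0 ± 2.16 CPM (log2 fold changes 0.27 and 0.33). The opposite-strand gene Ctsb overlaps 18.3% of the exon bases of Fdft1 and had 732, 600 and 599 CPM on average in control, shAD4-1 and shAD4-2, and reads from that stretch cannot be told apart where counting did not use strand, which is not given in the sources used here. Sc5d, a desaturase late in the pathway, was higher with shAD4-2 (0.16, adjusted p = 0.00862) but not called on FPKM with limma (adjusted p = 0.0658). Dhcr7, the last reductase, was lower with shAD4-2, from 67.9 ± 2.91 to 58.6 ± 1.85 CPM (-0.21, adjusted p = 0.000778). Cyp51, the lanosterol demethylase, was lower with shAD4-1 (-0.15, adjusted p = 0.00473) and at -0.07 with shAD4-2 (adjusted p = 0.157). The reductase Tm7sf2 had 4.12, 4.42 and 3.73 CPM in control and 3.45, 2.18 and 2.84 with shAD4-1. Its call with shAD4-1 (-0.53, adjusted p = 0.0207) was lost without control replicate 2 (adjusted p = 0.0759) or shAD4-1 replicate 2 (adjusted p = 0.113), and 12.1% of its exon bases are shared with Vps51 on the same strand. Nsdhl, Hsd17b7 and Ebp, which act between lanosterol and the late desaturation, were called with neither hairpin, at log2 fold changes between -0.14 and 0.13.

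In acetyl-CoA supply and fatty acid synthesis, Fasn rose and Acss2 and Acacb fell with both hairpins. With shAD4-1, 2 of 5 genes (40%) were higher and 3 (60%) lower, beside 32.7% and 32.3% of all tested genes. With shAD4-2, 1 (20%) was higher and 2 (40%) lower, beside 34.2% and 34.8%, and shares of 5 genes are too coarse to set apart from the background. Fasn, which builds palmitate, stood at 207, 201 and 197 CPM in control, 282, 274 and 270 with shAD4-1 and 348, 344 and 332 with shAD4-2. The 3 groups did not overlap, with log2 fold changes of 0.45 (SE 0.04, adjusted p = 4.36e-09) and 0.76 (SE 0.04, adjusted p = 2.46e-12). Acss2, which makes acetyl-CoA from acetate, stood at 32.6, 39.7 and 36.5 CPM in control, 23.0, 23.1 and 23.4 with shAD4-1 and 19.5, 22.9 and 23.4 with shAD4-2. It was below control in every hairpin library (log2 fold changes -0.65 and -0.73, SE 0.08 each). Acly, which makes cytosolic acetyl-CoA from citrate, was 1.1-fold lower with shAD4-1 (301 ± 5.7 to 273 ± 4.8 CPM, adjusted p = 0.00152) and stood at 303 ± 1.85 CPM with shAD4-2, within the control range.

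Of the carboxylases, which make malonyl-CoA, Acacb fell with both hairpins. Acacb, whose mitochondrial product is known to restrain fatty acid oxidation, stood at 28.9, 30.9 and 35 CPM in control, 22, 23.1 and 21.6 with shAD4-1 and 16.7, 16.6 and 17.1 with shAD4-2. Its groups did not overlap, with log2 fold changes of -0.51 (SE 0.07, adjusted p = 5.48e-06) and -0.91 (SE 0.07, adjusted p = 3.42e-09). Acaca, which feeds synthesis in the cytosol, stood at 112, 123 and 129 CPM in control, 130, 130 and 136 with shAD4-1 and 125, 124 and 120 with shAD4-2. It was called higher with shAD4-1 (0.12, adjusted p = 0.0332), a call lost without control replicate 1 (adjusted p = 0.105) or shAD4-1 replicate 3 (adjusted p = 0.129), with upper-quartile scaling (adjusted p = 0.0861) and with limma on FPKM (adjusted p = 0.305). The ratio of Acacb to Acaca in FPKM was 0.293 ± 0.0128 in control, 0.190 ± 0.0111 with shAD4-1 and 0.154 ± 0.00562 with shAD4-2.

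Among the elongases and desaturases, 5 of 7 genes (71.4%) were higher with both hairpins and 1 (14.3%) was lower with both, beside 28.1% and 27.6% of all tested genes. Fads2, the delta-6 desaturase of polyunsaturated fatty acid synthesis, stood at 120, 118 and 120 CPM in control, 195, 190 and 191 with shAD4-1 and 230, 225 and 217 with shAD4-2. The groups did not overlap, at 1.61-fold (log2 fold change 0.69, SE 0.04, adjusted p = 1.13e-11) and 1.88-fold (0.91, SE 0.04, adjusted p = 1.89e-13). Fads1, the delta-5 desaturase that acts after it, stood at 129, 135 and 132 CPM in control, 151, 151 and 152 with shAD4-1 and 161, 153 and 151 with shAD4-2. Fads1 was higher in every hairpin library (0.20 and 0.23), and the FPKM ratio of Fads2 to Fads1 went from 1.1 ± 0.0323 to 1.55 ± 0.0239 and 1.76 ± 0.0265.

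Elovl1, which extends saturated chains to very long ones, stood at 52.6, 59.1 and 57.5 CPM in control, 89.5, 84.7 and 85.5 with shAD4-1 and 87.6, 90.4 and 85.4 with shAD4-2. The hairpin groups overlapped each other and lay above control (0.62 and 0.64, SE 0.05 each). Elovl6, which extends palmitate, stood at 43.6, 42.2 and 40.1 CPM in control, 51.4, 50.8 and 52.8 with shAD4-1 and 55.3, 54.9 and 50.7 with shAD4-2, and was called higher with both (0.30 and 0.35). Elovl5, an elongase of polyunsaturated chains, stood at 82.1, 87.5 and 78.6 CPM in control, 87.3, 87.7 and 90.5 with shAD4-1 and 82.0, 85.5 and 81.9 with shAD4-2. It overlapped control with both hairpins and was called with neither (0.10 and 0.01).

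The stearoyl-CoA desaturases, which make monounsaturated fatty acids, moved in opposite directions. Scd2, the most abundant of all 42 genes, stood at 1833, 1959 and 1985 CPM in control, 1597, 1601 and 1532 with shAD4-1 and 1633, 1605 and 1576 with shAD4-2. All hairpin libraries were below control (log2 fold changes -0.29, adjusted p = 2.08e-06, and -0.26, adjusted p = 5.49e-06). Its share of the reads of the 42 genes was 39.8% to 41.4% in control and 32.5% to 33.3% in the hairpin libraries. Scd1 stood at 153, 153 and 154 CPM in control, 174, 170 and 173 with shAD4-1 and 171, 182 and 172 with shAD4-2, and rose by 0.17 and 0.19 on the log2 scale. Of the FPKM of Scd1 and Scd2 together, Scd1 held 8.07% to 8.62% in control and 10.6% to 11.3% in the hairpin libraries. The 2 genes are close copies, and reads common to both may have been divided or left out.

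The glycerolipid and droplet genes held the largest rise of the 42 genes. Plin2 (gene ID 11520), a perilipin that coats lipid droplets in most cell types, stood at 83.3, 81.3 and 74.9 CPM in control, 203, 202 and 198 with shAD4-1 and 187, 193 and 182 with shAD4-2. The hairpin libraries lay far above control, at 2.52-fold (log2 fold change 1.33, SE 0.04, adjusted p = 1.23e-14) and 2.35-fold (1.23, SE 0.04, adjusted p = 3.22e-14). Plin3, a perilipin that moves between cytosol and droplets, stood at 125, 128 and 131 CPM in control, 165, 157 and 154 with shAD4-1 and 136, 141 and 143 with shAD4-2. It was higher with both (0.31 and 0.13), though its call with shAD4-2 (adjusted p = 0.00818) was lost with limma on FPKM (adjusted p = 0.0919). In FPKM the ratio of Plin2 to Plin3 was 0.461 ± 0.0365 in control and 0.932 ± 0.0255 and 0.987 ± 0.0408 with the hairpins. Plin1, Plin5, Cidea and Adipoq, known for fat cells and other fat-storing tissue, had at most 0.288 CPM on average in any group.

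Dgat2, one of the enzymes of the last step of triglyceride synthesis, stood at 8.96, 8.95 and 10.4 CPM in control, 15.6, 14.4 and 15.2 with shAD4-1 and 13.2, 11.6 and 14.0 with shAD4-2. It was above control in every hairpin library (0.67, SE 0.10, adjusted p = 6.22e-06, and 0.45, SE 0.10, adjusted p = 0.000465). Dgat1, which catalyses the same step, stood at 51.3, 56.7 and 60 CPM in control, 57.5, 57.8 and 54.5 with shAD4-1 and 54.3, 52.7 and 50.4 with shAD4-2, overlapping control with both and called with neither. The FPKM ratio of Dgat2 to Dgat1 was 0.202 ± 0.0114 in control, 0.319 ± 0.0181 with shAD4-1 and 0.296 ± 0.0348 with shAD4-2. Gpam, the mitochondrial acyltransferase of the first step, fell from 47.7 ± 1.58 to 39.0 ± 1.55 and 37.6 ± 1.97 CPM (-0.29 and -0.35). Lpin1, a phosphatidic acid phosphatase, went from 62.7 ± 7.48 to 48.7 ± 2.71 and 53.4 ± 0.321 CPM, and with control replicate 3 left out its call with shAD4-2 (-0.23, adjusted p = 0.00529) did not hold (adjusted p = 0.0681).

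**Figure D4:**
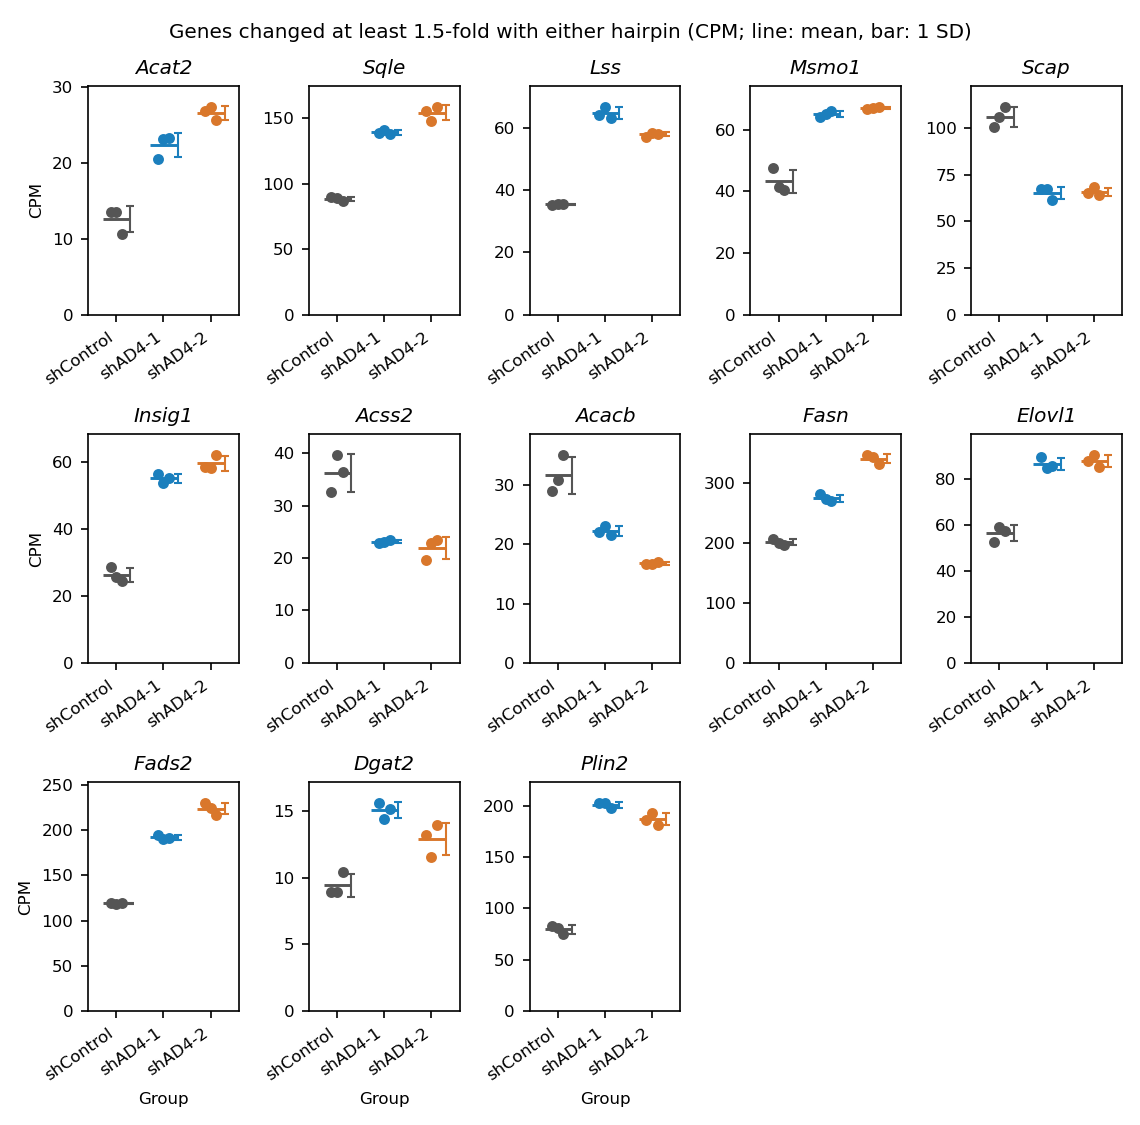
CPM in each library of the 13 genes called and at least 1.5-fold changed with either hairpin, by group, with the mean as a line and 1 SD as a bar on axes that start at 0. Acat2, Sqle, Lss, Msmo1, Insig1, Fasn, Elovl1, Fads2, Dgat2 and Plin2 lie above control and Scap, Acss2 and Acacb below it in all hairpin libraries.

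The hairpins were also compared with each other, which asks where the groups differed in the same genes. Of the 42 genes, 6 (14.3%) were higher and 5 (11.9%) lower with shAD4-2 than with shAD4-1, beside 13.4% and 14% of all tested genes, so the shares were near the background. None reached 1.5-fold in either direction, a size passed by 0.963% (higher) and 2.93% (lower) of all tested genes. Genes with a higher level under shAD4-2 were Hmgcs1 (log2 fold change 0.44, SE 0.05, adjusted p = 6.12e-06), Fasn (0.31, SE 0.04, adjusted p = 7.66e-06), Acat2, Fads2, Acly and Sqle. Fasn, Fads2, Sqle and Acat2 were higher than control with either hairpin, and their level was furthest from control with shAD4-2. Genes with a lower level under shAD4-2 were Acacb (-0.40, SE 0.08, adjusted p = 0.000707), Srebf2 (-0.23, SE 0.04, adjusted p = 0.000196), Plin3, Lss and Insig2. The differences of Acat2 (adjusted p = 0.0338), Lss (0.0151) and Insig2 (0.0212) were each lost when any of several single libraries was left out. These were shAD4-1 replicates 1 and 2 and shAD4-2 replicates 1 and 2 for Acat2, shAD4-1 replicate 2 and shAD4-2 replicate 1 for Lss, and shAD4-1 replicate 2 and shAD4-2 replicates 2 and 3 for Insig2. The adjusted p without a library reached 0.157 for Acat2 (without shAD4-1 replicate 1), 0.0844 for Lss (without shAD4-1 replicate 2) and 0.124 for Insig2 (without shAD4-2 replicate 3). Insig1, Scap, Srebf1, Elovl1 and Msmo1 did not pass this test, at differences of 0.01 to 0.11.

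**Figure D5:**
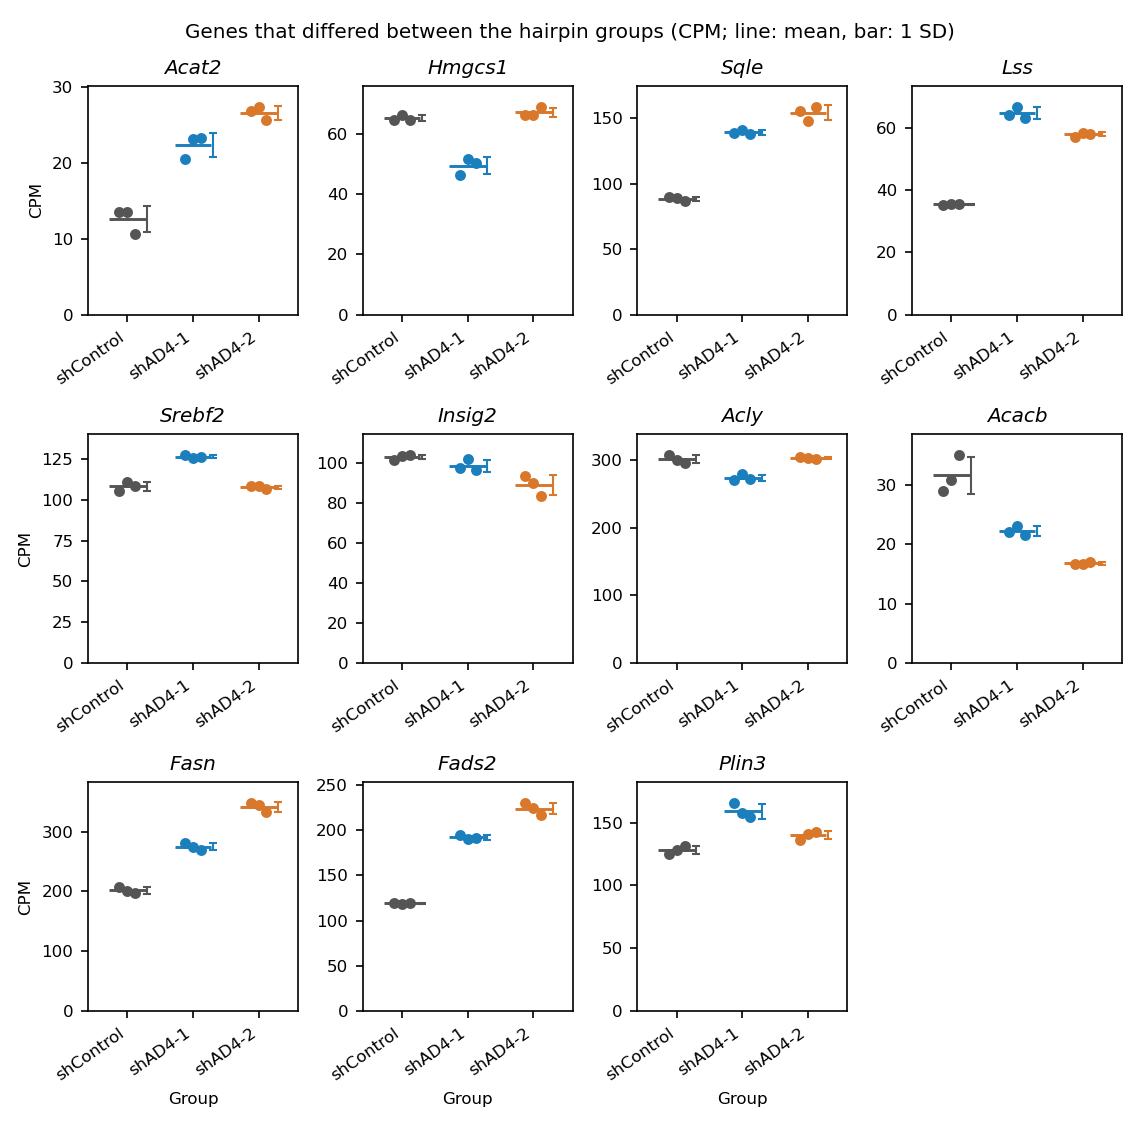
CPM in each library of the 11 genes that differed between shAD4-2 and shAD4-1, by group, with the mean as a line and 1 SD as a bar on axes that start at 0. Hmgcs1, Acly and Srebf2 show one hairpin group at the control level and the other apart from it, while Fasn, Fads2, Sqle and Acacb move further from control with shAD4-2.

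The genes around these pathways were read from further lists, whose counts stand beside 32.7% higher and 32.3% lower of all tested genes with shAD4-1 and 34.2% and 34.8% with shAD4-2. Of 16 further genes of sterol and isoprenoid synthesis, 11 (68.8%) were higher and 2 (12.5%) lower with shAD4-1. The counts with shAD4-2 were 10 (62.5%) and 3 (18.8%). The shares higher were above and the shares lower below those of all genes. All further lists were chosen with earlier results of these data known, so their shares only describe the listed genes. Pdss1, which makes the coenzyme Q side chain, rose (log2 fold changes 0.84 with shAD4-1 and 1.09 with shAD4-2), as did Aacs, which activates acetoacetate (0.43 and 0.57).

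Among 19 tested genes of sterol uptake, movement, esterification and efflux, 8 (42.1%) were higher and 10 (52.6%) lower with shAD4-1, and 6 (31.6%) and 11 (57.9%) with shAD4-2, beside 32.7% and 32.3%, and 34.2% and 34.8%, of all tested genes. Mylip, a ubiquitin ligase of lipoprotein uptake, fell from 78.2 ± 3.89 to 40.5 ± 0.35 and 44.0 ± 2.15 CPM (log2 fold changes -0.95 and -0.83). Npc1, which exports cholesterol from lysosomes (-0.54 and -0.88), and Lipa, the lysosomal lipase that frees it from esters (-0.54 and -0.86), fell with both. Of 17 tested genes of fatty acid activation and oxidation, 9 (52.9%) were higher and 0 lower with shAD4-1, and 12 (70.6%) higher and 1 (5.88%) lower with shAD4-2, against the same shares of all genes. Those with the largest changes were the lipid-sensing receptor Ppara (2.28 and 1.98, from 1.41 ± 0.273 CPM in control), its coactivator Ppargc1a (1.42 and 1.46, from 82.2 ± 3.18 CPM), and the oxidation enzymes Hadha (0.80 and 0.88) and Cpt2 (0.49 and 0.30).

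Of 16 tested further genes of elongation and fatty acid handling, 6 (37.5%) were higher and 5 (31.2%) lower with shAD4-1, near the 32.7% and 32.3% of all tested genes, and 7 (43.8%) and 4 (25%) with shAD4-2, beside 34.2% and 34.8%. Here Fads6 (1.23 and 1.04), a member of the desaturase family, Elovl4 (1.00 and 0.76), an elongase, and Me1 (0.57 and 0.54), which makes NADPH, rose, and Tecr, the last reductase of the elongation cycle, fell (-0.54 and -0.73). Of 19 tested further glycerolipid and droplet genes, 8 (42.1%) were higher and 5 (26.3%) lower with either hairpin, beside the same shares of all genes. Gpat3, an acyltransferase of the same first step as Gpam, rose from 5.18 ± 0.613 to 29.6 ± 1.18 and 31.1 ± 1.91 CPM (2.52 and 2.59), opposite in direction to Gpam. G0s2, an inhibitor of the main triglyceride lipase, rose (1.70 and 1.37), and Mogat2 (-0.61 and -1.33) and Agpat3 (-0.68 and -0.52), acyltransferases of glycerolipid synthesis, fell with both. These lists share the control libraries and the mitochondrial and marker shifts given above, whose part in the results was not tested beyond the fit without mitochondrial genes.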

How the data were processed

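Total RNA of cultured B16 cells was sequenced in 9 libraries, 3 per group. The submitters' processing notes name fastp, HISAT2, HTSeq and the build GRCm39. Tool versions, the annotation and whether counting used strand: not given in the sources used here. The authors deposited whole-number read counts per gene, and FPKM values of these genes. The columns, per the file headers, are named for a control and 2 knockdown groups, which were matched to the hairpins by number.

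The analysis of counts used edgeR 4.0.16 (R 4.3.3): filterByExpr left 13807 genes with 99.97% of the reads, libraries were scaled by TMM, and all 9 libraries entered one fit with group as the only term (glmQLFit, glmQLFTest, Benjamini-Hochberg over all tested genes, threshold 0.05). SEs were taken as the log2 change over the root of the F statistic. The typical variation between replicates was 5.15%. The analysis was tested on simulated data. Replicate numbers did not pair the libraries: deviations of same-numbered libraries correlated at -0.124 to 0.00225 over 9 pairs. No libraries agreed within sampling noise, with a chi-square per degree of freedom of at least 2.99.

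The 42 genes, the further lists and the promoter motifs were chosen with earlier results of these data known. Every library's value is given for genes called and at least 1.5-fold changed with either hairpin and for paralog pairs. It is also given for Hmgcs1, which was chosen after its values were seen. From each further list up to 4 genes are named, those with the largest mean change among genes that both hairpins moved the same way past the threshold and with at least 5 CPM in the highest group. Some genes that this rule selects are not reported here. Exon overlaps are from GENCODE vM21 and promoters from RefSeq, both on GRCm38, so coordinates apply to that build only. The alternatives tried were DESeq2 1.42.0, RLE or upper-quartile scaling, other filters, glmTreat at 1.5-fold, limma 3.58.1 on log2(FPKM + 1) and log2(FPKM + 0.1), only the groups compared, a replicate block, no mitochondrial genes, and each library left out.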

Additional observations from a re-analysis of the deposited data

Results flagged for a closer look

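For 11 of the 42 genes the effect of the 2 hairpins differed by the direct test between them (edgeR's quasi-likelihood test, Benjamini-Hochberg adjustment), given here as the log2 fold change of shAD4-2 against shAD4-1. The level was higher with shAD4-2 for Hmgcs1 (0.44), Fasn (0.31), Acat2 (0.25), Fads2 (0.22), Acly (0.15) and Sqle (0.15). It was lower with shAD4-2 for Acacb (-0.40), Srebf2 (-0.23), Plin3 (-0.18), Lss (-0.16) and Insig2 (-0.15). In each of the 11 all 3 libraries of one hairpin lay on one side of the 3 of the other.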

How the results depend on the processing

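No gene among the 42 reversed a called direction under any alternative. Under glmTreat, which asks for changes beyond 1.5-fold, 5 genes were higher and 1 lower with shAD4-1, and 7 and 2 with shAD4-2. With both hairpins 5 were higher and 1 lower, and 0 differed between the hairpins in either direction. Of all tested genes, glmTreat called 14.9% with shAD4-1, 18.9% with shAD4-2 and 0.362% between the hairpins, in either direction. The counts of the 42 genes were not tested against these shares. With only the compared groups in the fit, 8 genes instead of 5 were lower with shAD4-2 than with shAD4-1. The share of all tested genes called between the hairpins in either direction also rose, from 27.4% to 36.0%. Leaving out single libraries took the count of lower genes from 3 (without shAD4-1 replicate 2) to 5. Without shAD4-1 replicate 2, 19.8% of all tested genes were called between the hairpins in either direction. With the replicate block the counts were 18 higher and 14 lower with shAD4-1, 17 and 11 with shAD4-2, and 6 and 5 between the hairpins. They were the same numbers as without it. The block fit called 64.0%, 67.9% and 25.4% of all tested genes in these 3 comparisons, in either direction. With 1 library left out, 7 of the 42 genes lost a call in some comparison and 6 gained one. With limma on FPKM, which carries no TMM scaling, 17 genes were higher and 17 lower with shAD4-1, and 15 and 14 with shAD4-2. On log2(FPKM + 1) with a minimum of 1 FPKM, limma called 70.8% and 74.3% of all its tested genes in either direction. The control TMM factors averaged 1.03 and those of the hairpin groups 0.986 and 0.988, and Acaca lost its call with shAD4-1 under upper-quartile scaling (adjusted p = 0.0861). Sc5d and Plin3 kept theirs with shAD4-2 under RLE and upper-quartile scaling and lost them with limma on FPKM, which also changes the model and filter. Idi1 and Tm7sf2, with the lowest FPKM in control, had SEs of 0.15 and 0.19 with shAD4-1, against 0.04 for Plin2.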
